A study of Homo sapiens with 6 samples.

Results

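The genes described here belong to TNF signalling: the TNF family of ligands, their receptors, and the proteins that assemble on those receptors inside the cell. They were chosen by gene symbol from the platform annotation, namely symbols beginning with TNFSF or TNFRSF and a fixed set of 17 further symbols. A receptor gene whose symbol begins this way was excluded beforehand. Each gene is represented by its brightest probe set, judged by the mean of all 6 arrays. This gave 10 of the 14812 named genes. They are 2 ligands (TNF and CD70), 2 receptors (CD27 and EDAR), 2 adaptors (FADD and TRADD), 2 inhibitors of cell death (CFLAR and BIRC2) and 2 long noncoding RNAs (TNFRSF10A-DT and TNFRSF14-AS1). The 8 protein-coding members are 8 of the 49 protein-coding genes in the RefSeq table that these symbols cover, the excluded gene left aside. The other ligands and receptors, including the 32 remaining protein-coding genes with a TNFSF or TNFRSF symbol, were not analysed here. The set is therefore a small part of the ligands, receptors and receptor-bound proteins of this pathway, and does not stand for the whole superfamily. The noncoding RNAs are neither ligands nor receptors and entered only because they are named after a neighbouring receptor gene.

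Trimeric TNF family ligands bind receptors on the cell surface, and some of these receptors carry a death domain in the cell. Through TRADD and the inhibitor-of-apoptosis proteins such a receptor can switch on NF-kB, and through FADD it can activate caspase-8 and kill the cell, a step held back by the protein encoded by CFLAR. In the liver this balance is known to decide whether hepatocytes survive TNF, and double-stranded RNA and viral infection feed into the same complexes.

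Expression was measured in HuH7, a human hepatoma cell line, on Affymetrix whole-transcript arrays of the Human Gene ST kind. The control gapmer group and the EGOT gapmer group had 3 arrays each. Cells of both groups were of this single line and received a plasmid for PKR, a kinase activated by double-stranded RNA, a carrier plasmid and poly I:C (synthetic double-stranded RNA), so no group shows the cells without that stimulation. Each well also received 50 pmol of a gapmer, an oligonucleotide that directs RNase H to cleave its complementary RNA, and RNA was taken after 36 hours. The EGOT gapmer was directed at EGOT, a long noncoding RNA that double-stranded RNA induces. Only 1 gapmer sequence was used against EGOT, and whether the replicates were grown as separate cultures is not in the labels. The p-values reflect the spread among these 6 samples, which could be technical. The sequences are shown because the labels name no other difference between the groups, and they are given there as the targeted sequences.
EGOT gapmer: agagacacttagaaga
Control gapmer: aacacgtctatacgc

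The targeted RNA was lower in every EGOT gapmer array, with a log2 difference of -1.76 (limma adjusted p = 0.0076; two-sided exact permutation p = 0.1, the smallest that 3 arrays against 3 can give). Of all named genes, 8.41% passed the limma test at an adjusted p of 0.05, 5.20% higher and 3.21% lower with the EGOT gapmer. Array medians over all probe sets lay between 5.08 and 5.23, highest in EGOT gapmer replicate 2. Of 8 measured hepatocyte and hepatoma markers, ALB and AFP read 13.7 and 13.3 with the control gapmer, 1 rose (APOA1, by 0.36 on the log2 scale) and 0 fell. APOB had a log2 difference of -0.18 with the groups apart that missed the threshold (limma adjusted p = 0.124). Over the 8 markers the groups were apart and higher in 2 and lower in 2, against 20.2% and 11.5% of all genes. Of 9 measured leukocyte marker genes CD68 and LYZ rose and 0 fell. The summed linear level of these 9 genes was 1028 to 1080 in the control gapmer arrays and 1582 to 1617 in the EGOT gapmer arrays. Without CD68 and LYZ the other 7 summed to 294 to 321 and 303 to 356, which overlap. The T cell markers CD2, CD4 and CD8A had log2 differences of 0.34, 0.08 and -0.01. The monocyte markers CSF1R and CD14 had 0.24 and -0.06, and none of these passed. Of the 9 leukocyte markers 6 lay above 0 and 3 below. TNF, CD70 and CD27 are also leukocyte genes, but by the labels all arrays were of the single line HuH7. The source of the signal of these genes and markers was not tested. Of the endothelial and the fibroblast markers 2 each were measured, and 0 passed.

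Of the 10 members 1 rose and 0 fell. It was TNFRSF10A-DT, a noncoding RNA, on a probe set that was kept as the brightest only through its EGOT gapmer values, so the choice of probe set favoured this call. With the mean of its probe sets 0 of the 10 members passed. In either case 0 of the 8 protein-coding members passed the test, and before adjustment FADD was the only protein-coding member under 0.05, with a higher level (unadjusted p = 0.0273 from limma across all genes). Before adjustment 16.2% of all named genes were under 0.05 and higher, and 8.79% were under 0.05 and lower. A log2 difference above 0 was seen in 3 members and below 0 in 7, against 57.8% and 42.2% of all genes. The median log2 difference was -0.04 over the 10 members and 0.04 over all genes. The groups did not overlap in 2 members, both higher, against 20.2% of all genes with groups apart and higher and 11.5% apart and lower. The count of calls among the members is close to the background share and is no result about them. In bulk RNA such as this, fewer cells expressing a gene and less RNA per cell cannot be told apart.

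**Figure D1:**
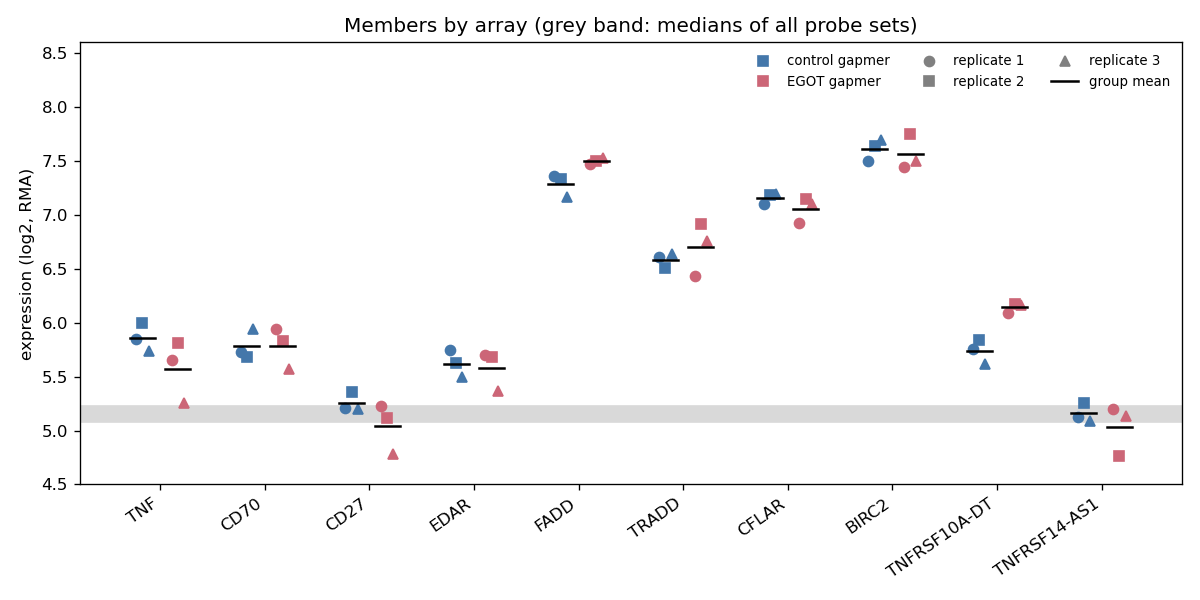
Log2 expression of the 10 members in each array; blue is the control gapmer, red the EGOT gapmer, symbols mark replicates 1 to 3, black lines are group means and the grey band spans the array medians of all probe sets (5.08 to 5.23). Only for FADD and TNFRSF10A-DT do all red points lie above all blue points, and CD27 and TNFRSF14-AS1 lie near the grey band.

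Among the ligands, TNF, the founding cytokine of the family, read 5.85, 6.00 and 5.74 in control gapmer replicates 1 to 3 and 5.65, 5.81 and 5.25 in EGOT gapmer replicates 1 to 3. The groups overlapped, with EGOT gapmer replicate 3 the lowest of the 6 arrays. The means were 5.86 ± 0.131 and 5.57 ± 0.286 (SD, n = 3 each), and the log2 difference of -0.29 with a standard error of 0.149 did not pass (limma adjusted p = 0.287). Its 95% interval ran from -0.64 to 0.06, so these arrays do not settle whether TNF was lower. Leaving out EGOT gapmer replicate 3 brought the difference to -0.13, and leaving out EGOT gapmer replicate 2 brought it to -0.41, neither of which passed. The members' log2 scale is the one on which the authors deposited the values, and low values there carry more background.

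CD70, the ligand of CD27 and best known on activated lymphocytes, read 5.73, 5.68 and 5.94 with the control gapmer. It read 5.94, 5.83 and 5.57 with the EGOT gapmer. The ranges covered each other almost fully, and the log2 difference was -0.0031, its 95% interval running from -0.28 to 0.28 (limma adjusted p = 0.990).

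Among the receptors, CD27, a costimulatory receptor of lymphocytes, read 5.21, 5.36 and 5.20 with the control gapmer. With the EGOT gapmer it read 5.23, 5.12 and 4.78, again with replicate 3 the lowest array and with overlap between the groups. The means were 5.25 ± 0.0911 and 5.04 ± 0.231 (SD, n = 3 each), close to the array medians. The log2 difference of -0.21 did not pass (limma adjusted p = 0.348, 95% interval -0.50 to 0.08), and it was -0.08 without EGOT gapmer replicate 3. For CD70 and CD27, a ligand and its receptor, neither value therefore passed.

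EDAR, the ectodysplasin receptor of skin appendage development, read 5.74, 5.63 and 5.49 with the control gapmer and 5.70, 5.68 and 5.37 with the EGOT gapmer. The values were interleaved, with a log2 difference of -0.04 (95% interval -0.31 to 0.23, limma adjusted p = 0.882). EGOT gapmer replicate 3 gave the lowest EGOT gapmer value in all 4 ligands and receptors.

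Neither adaptor passed after adjustment, though the FADD groups were apart. FADD, which links death receptors to caspase-8, read 7.36, 7.33 and 7.16 with the control gapmer. It read 7.47, 7.50 and 7.53 with the EGOT gapmer, so every EGOT gapmer array lay above every control array. The means were 7.29 ± 0.106 and 7.50 ± 0.0282 (SD, n = 3 each), and the log2 difference of 0.22 with a standard error of 0.0781, or 1.16-fold, did not pass after adjustment (limma adjusted p = 0.140, 95% interval before adjustment 0.03 to 0.40). Across 15 alternative settings its difference stayed above 0, from 0.16 to 0.25, and it passed in 0, with adjusted p between 0.0668 and 0.354. A dimmer second probe set of FADD read 5.63, 5.61 and 5.53 with the control gapmer and 5.77, 5.96 and 5.50 with the EGOT gapmer. There the groups overlapped and the log2 difference was 0.15.

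TRADD, the adaptor that TNF receptor 1 recruits first, read 6.61, 6.50 and 6.63 with the control gapmer. With the EGOT gapmer it read 6.43, 6.92 and 6.75, which spread more widely and enclosed the control values. The log2 difference of 0.12 did not pass (limma adjusted p = 0.624, 95% interval -0.18 to 0.42). It was 0.26 without EGOT gapmer replicate 1 and 0.01 without EGOT gapmer replicate 2.

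Neither inhibitor passed. CFLAR encodes c-FLIP, a caspase-8 relative that blocks caspase-8 at the receptor. It read 7.10, 7.18 and 7.20 with the control gapmer and 6.92, 7.15 and 7.10 with the EGOT gapmer, a log2 difference of -0.10 (SE 0.0838, limma adjusted p = 0.508, 95% interval -0.30 to 0.09). BIRC2 encodes cIAP1, a ubiquitin ligase of the TNF receptor complex. It read 7.50, 7.64 and 7.69 with the control gapmer and 7.44, 7.75 and 7.50 with the EGOT gapmer, a log2 difference of -0.04 (limma adjusted p = 0.843, 95% interval -0.29 to 0.20). In both genes the groups overlapped. For 7 of the 8 protein-coding members, all but TNF, the 95% interval lay inside a 1.5-fold change in either direction. Of these, CD27, EDAR and CD70 were dim, with 30.5%, 39.8% and 43.5% of named genes dimmer still. Low values carry more background, so their intervals do not show that these genes were unchanged.

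**Figure D2:**
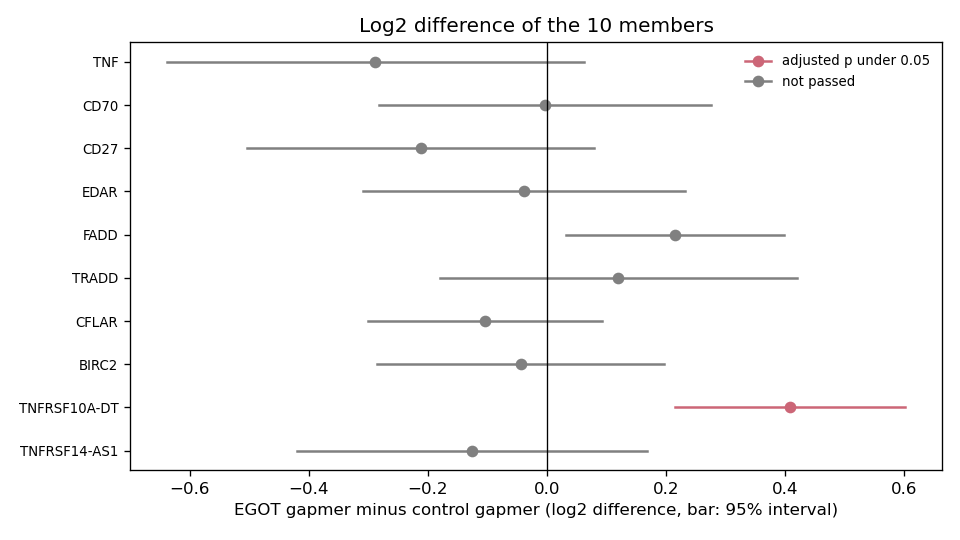
Log2 difference, EGOT gapmer minus control gapmer, of each member with its 95% interval from limma (n = 3 arrays per group); red marks an adjusted p under 0.05. TNFRSF10A-DT at 0.41 is the only red point, and the intervals of TNF and CD27 reach from -0.64 and -0.50 to just above 0.

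TNFRSF10A-DT, a long noncoding RNA transcribed divergently from the gene of a TRAIL receptor, was the member that rose. It read 5.75, 5.84 and 5.61 with the control gapmer and 6.09, 6.18 and 6.17 with the EGOT gapmer. All EGOT gapmer arrays lay above all control arrays. The means were 5.74 ± 0.116 and 6.14 ± 0.0475 (SD, n = 3 each), a 1.33-fold rise and a log2 difference of 0.41 (SE 0.0823, limma adjusted p = 0.031, 95% interval 0.22 to 0.60). The gene has another probe set, which did not show this. It read 5.80, 5.89 and 6.00 with the control gapmer and 5.98, 5.73 and 5.85 with the EGOT gapmer, a log2 difference of -0.04. With the control gapmer this other set was the higher of the pair, at 5.90 against 5.74, and the set kept had the higher mean over 6 arrays through its EGOT gapmer values. With the mean of both sets the difference was 0.18 and did not pass (limma adjusted p = 0.148). It passed in 6 of 15 alternatives, and leaving out any single array, whichever group it came from, ended the call (differences 0.35 to 0.46). Over all genes 9 to 579 passed with 1 array left out, against 1245 with all 6 arrays. Which transcripts each probe set reads is not in the sources used here, and the neighbouring receptor gene was not analysed here.

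TNFRSF14-AS1, the antisense RNA named after the herpesvirus entry mediator gene, read 5.13, 5.26 and 5.09 with the control gapmer. With the EGOT gapmer it read 5.20, 4.76 and 5.14, where replicate 2 was low. The log2 difference of -0.13 did not pass (limma adjusted p = 0.602, 95% interval -0.42 to 0.17), and it was 0.01 without EGOT gapmer replicate 2.

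**Figure D3:**
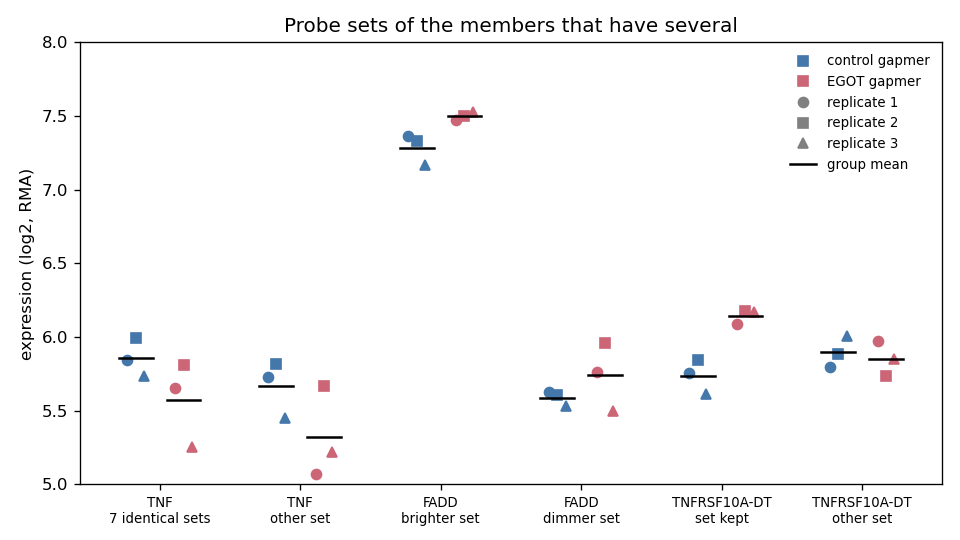
Log2 expression by array of the distinct probe sets of the 3 members with several, with colours, symbols and group means as in the plot of members by array. The groups are apart in the kept TNFRSF10A-DT set (5.74 and 6.14) and overlap in its other set (5.90 and 5.85), while both TNF profiles have lower EGOT gapmer means.

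TNF had 8 probe sets, of which 7 held identical values in all 6 arrays and count as 1 measurement. The remaining set read 5.73, 5.82 and 5.45 with the control gapmer and 5.07, 5.67 and 5.22 with the EGOT gapmer, a log2 difference of -0.35. Its groups also overlapped. Both TNF profiles thus had a lower EGOT gapmer mean, and neither passed. The other 7 members besides TNF, FADD and TNFRSF10A-DT had 1 probe set each.

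Promoter sequence was examined because both NF-kB and interferon factors are known to act on genes of this pathway. RefSeq windows on GRCh38.p14 from 250 bases before to 50 bases after the transcript start were at hand for 5 of the 8 protein-coding members, 9 windows in all. An NF-kB consensus of 10 bases, searched on both strands, was in 1 of the 9, against 11.3% of all 35116 windows. Its letters were GGG, then A or G, any 2 bases, 2 letters of C or T, and CC. Sites that depart from these letters were not counted, so a window without a match may still hold a site. The interferon-stimulated response element, sought as TTTC followed after any 2 bases by another TTTC on both strands, was in 0 of the 9, against 3.57% of all windows. TATAAA on the gene strand was in 1 of the 9, against 7.33%. The windows with a match are printed up to the transcript start, with the match in capitals: the TATA sequence of TNF (chr6:31575315-31575564, plus strand), and the NF-kB match in the first of 4 CFLAR windows (chr2:201118466-201118715, plus strand).
TNF: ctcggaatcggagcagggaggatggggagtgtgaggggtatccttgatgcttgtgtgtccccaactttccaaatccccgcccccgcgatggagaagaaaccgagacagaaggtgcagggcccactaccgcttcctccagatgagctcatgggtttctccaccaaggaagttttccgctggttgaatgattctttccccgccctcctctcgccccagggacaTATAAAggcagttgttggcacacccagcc
CFLAR: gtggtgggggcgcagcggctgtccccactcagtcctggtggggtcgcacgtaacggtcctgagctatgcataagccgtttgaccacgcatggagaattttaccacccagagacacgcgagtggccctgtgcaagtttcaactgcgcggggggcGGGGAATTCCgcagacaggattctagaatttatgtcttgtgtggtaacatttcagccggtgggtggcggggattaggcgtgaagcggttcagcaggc
The TNF match begins 29 bases before the start and the CFLAR match 97 bases before it. A match is a run of letters and was not tested as a binding site. TNF and CFLAR, with log2 differences of -0.29 and -0.10, did not pass.

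Of the superfamily genes with other symbols, 4 of 5 were measured and 0 passed. NGFR, the low-affinity neurotrophin receptor, had a log2 difference of 0.12, RELT, a receptor of lymphoid tissue, of 0.12 and EDA2R, a second ectodysplasin receptor, of 0.11. EDA, the ligand of EDAR, read 5.56, 5.55 and 5.15 with the control gapmer and 5.54, 5.44 and 5.27 with the EGOT gapmer. Its log2 difference was -0.0019, so neither ectodysplasin nor its receptor passed. Limma adjusted p-values of the 4 genes ran from 0.496 to 0.995.

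Genes that act after the receptors were measured for 31 of 42 listed. Of these 3 fell and 1 rose, against 3.21% and 5.20% of all genes, and the list's median log2 difference was 0.01. The balance of directions turned with the setting, with 0 higher and 4 lower after a further quantile normalization or cyclic loess, and 3 higher and 2 lower with a variance trend. The balance over all genes shifted too, from 770 higher and 475 lower in the main test. It was 679 and 674 after quantile normalization, 644 and 677 after cyclic loess, and 1664 and 849 with a variance trend. FAF1 encodes a protein that binds the death receptor FAS and its adaptor FADD. It read 8.27, 8.41 and 8.36 with the control gapmer and 7.58, 7.51 and 7.68 with the EGOT gapmer, with no overlap. Its log2 difference of -0.75 with a standard error of 0.0791, or 0.593 of the control level, was the largest in the list (limma adjusted p = 0.00851). FAF1 spans 523240 bases in the RefSeq table, longer than 98.7% of the named genes. With the trend of values on gene span removed its log2 difference was -0.69 (limma adjusted p = 0.0120). That trend was shallow, with a slope of -0.0437 in log2 difference on log10 span, so its removal could move the value only a little. Whether the fall has to do with gene length was not tested. FAF1 did not pass without control gapmer replicate 2 (limma adjusted p = 0.0562) or replicate 3 (limma adjusted p = 0.0543). In those settings 9 and 34 of all genes passed.

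NSMAF, which encodes FAN, the adaptor joining TNF receptor 1 to neutral sphingomyelinase, read 7.22, 7.31 and 7.26 with the control gapmer and 6.64, 6.98 and 6.65 with the EGOT gapmer. It fell by 0.51 on the log2 scale (limma adjusted p = 0.0352), all EGOT gapmer arrays lying below the controls. With 1 array left out it passed only without EGOT gapmer replicate 2. MLKL, the pore-forming effector of necroptosis, read 5.30, 5.09 and 5.04 with the control gapmer and 4.68, 4.82 and 4.77 with the EGOT gapmer, and fell by 0.39 (limma adjusted p = 0.0454). Its control gapmer mean of 5.15 lay among the array medians of all probe sets (5.08 to 5.23). The EGOT gapmer mean of 4.75 lay below them, where values carry more background. BID, the BCL2 family protein that caspase-8 cleaves to engage mitochondria, read 7.85, 7.97 and 7.88 with the control gapmer and 8.30, 8.27 and 8.14 with the EGOT gapmer. It rose by 0.34 (limma adjusted p = 0.0429). Leaving out any single array ended the calls of MLKL (differences -0.44 to -0.31) and BID (0.31 to 0.39), where 9 to 579 of all genes passed, against 1245 in the main test. BID did not pass after a further quantile normalization (0.29, limma adjusted p = 0.0689) or cyclic loess (0.28, limma adjusted p = 0.0677) either. MLKL did not pass with the gene span trend removed (-0.38, limma adjusted p = 0.0519) or with a variance trend (-0.39, limma adjusted p = 0.0607).

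**Figure D4:**
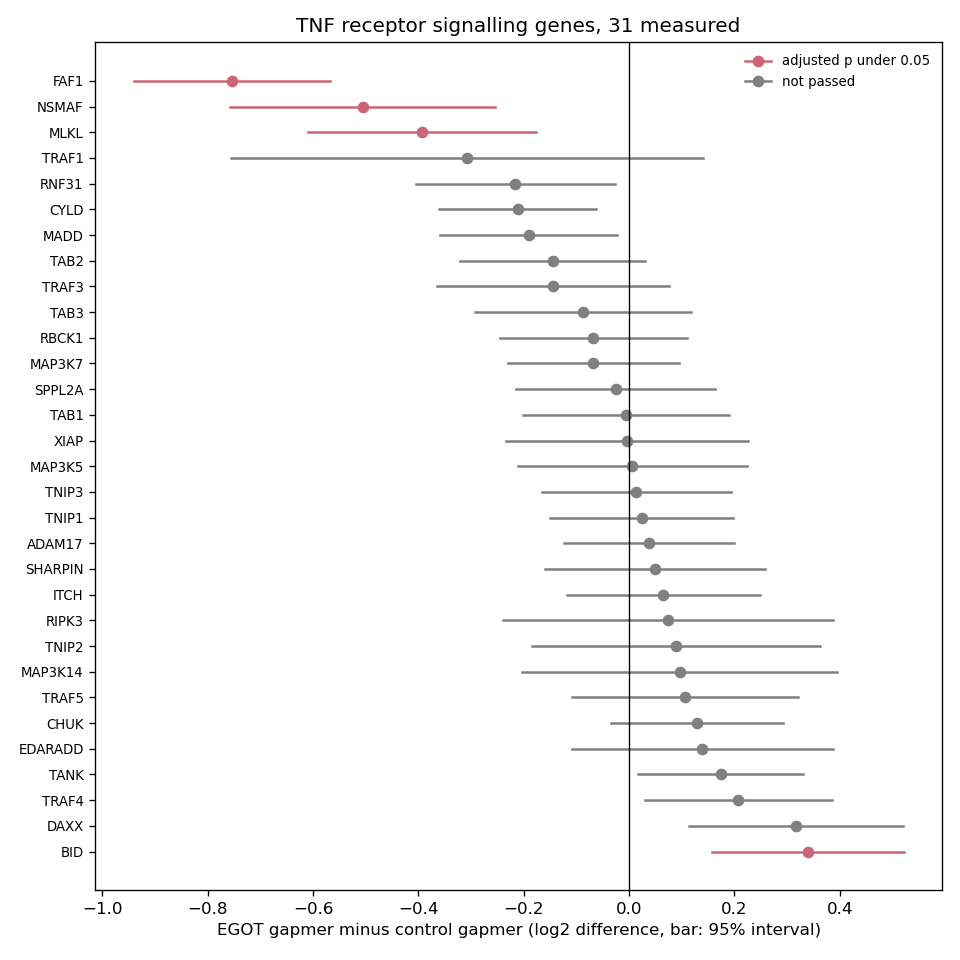
Log2 difference, EGOT gapmer minus control gapmer, of the 31 measured TNF receptor signalling genes with 95% intervals from limma (n = 3 arrays per group), sorted by difference; red marks an adjusted p under 0.05. FAF1, NSMAF and MLKL lie to the left at -0.75, -0.51 and -0.39, BID to the right at 0.34, and the other 27 did not pass.

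Apart from the receptor-binding adaptors and the death effectors, the groups of that list had 0 genes past the test. The 5 measured TRAF adaptors and partners ranged from -0.31 for TRAF1 to 0.21 for TRAF4. The 8 genes of the ubiquitin system ranged from -0.22 for RNF31, the catalytic subunit of the linear ubiquitin ligase, to 0.09 for TNIP2. CYLD, a deubiquitinase that trims those chains, had a difference of -0.21 (limma adjusted p = 0.0878). The groups were apart in both CYLD and RNF31. Over the 31 genes they were apart and higher in 5 and lower in 7, against 20.2% and 11.5% of all genes. The 7 kinases and their partners, among them MAP3K7, which encodes TAK1, and CHUK, which encodes IKK-alpha, ranged from -0.15 to 0.13. ADAM17, the protease that releases TNF from the cell surface, had a difference of 0.04 and the intramembrane protease gene SPPL2A of -0.03. Among the receptor-binding adaptors, where FAF1 and NSMAF fell, DAXX, a partner of FAS and of nuclear bodies, had a value of 0.32, short of the threshold (limma adjusted p = 0.0677).

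Among genes known to be induced by TNF through NF-kB, 21 of 30 listed were measured, of which 5 fell and 1 rose, against 3.21% and 5.20% of all genes. Those that fell were CXCL8, CCL5, NFKB1, IRF1 and ICAM1, with log2 differences of -0.72 to -0.43, and ZC3H12A, an RNase that limits cytokine transcripts, rose by 0.41. Some genes of this list, CCL5 and IRF1 among them, are also known interferon-induced genes. The median log2 difference was -0.15, and 17 of 21 genes were below 0, against 42.2% of all genes. The mean log2 level over the 21 genes was 7.40 to 7.46 in the control gapmer arrays and 7.20 to 7.29 in the EGOT gapmer arrays. The mean over the 10 members was 6.18 to 6.24 and 6.12 to 6.27. Whether the lists differ in this was not tested. BCL2L1, which encodes the survival protein BCL-XL, read 9.53, 9.57 and 9.46 with the control gapmer and 9.17, 9.25 and 9.31 with the EGOT gapmer. Its difference of -0.28 did not pass (limma adjusted p = 0.0655), nor did that of -0.47 for the chemokine gene CXCL10 (limma adjusted p = 0.0546). VCAM1, an adhesion molecule gene, had a value of 0.31, which missed the threshold (limma adjusted p = 0.134), and the early response genes IER3 and BCL3 had differences of 0.04 and -0.01. With 1 array left out between 0 and 4 genes of this list passed: 4 without EGOT gapmer replicate 1 and 3 without EGOT gapmer replicate 2, where 579 and 505 of all genes passed. The count was 0 without control gapmer replicate 1, 2 or 3, where 58, 9 and 34 of all genes passed. It was also 0 without EGOT gapmer replicate 3, where 156 passed.

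**Figure D5:**
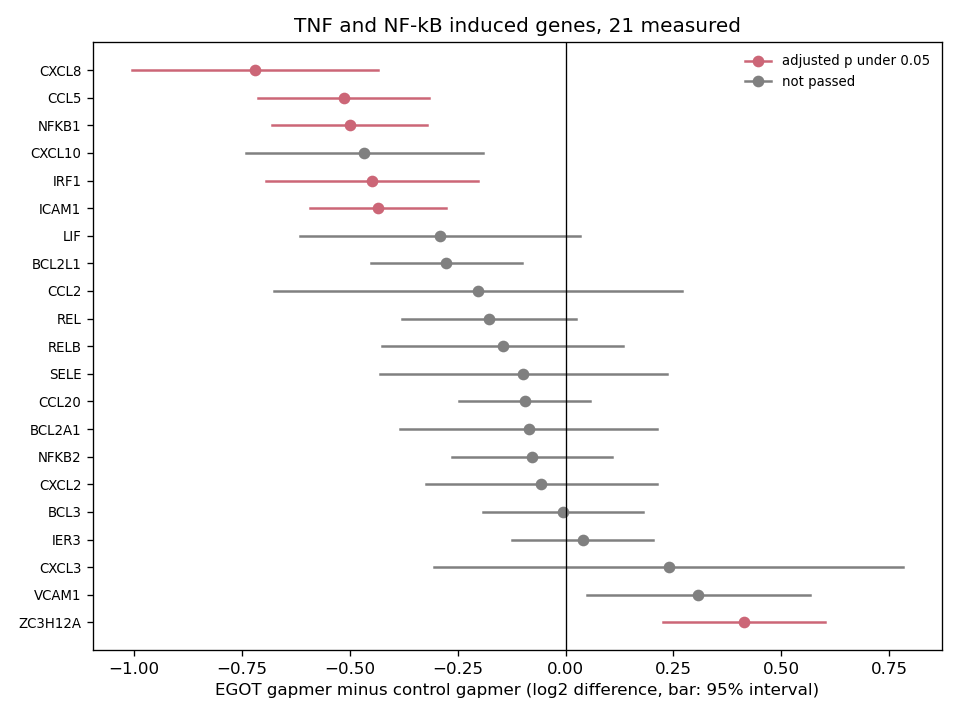
Log2 difference, EGOT gapmer minus control gapmer, of the 21 measured TNF and NF-kB induced genes with 95% intervals from limma (n = 3 arrays per group), sorted by difference; red marks an adjusted p under 0.05. The 5 red points on the left run from -0.72 for CXCL8 to -0.43 for ICAM1, and ZC3H12A at 0.41 is the only red point on the right.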

How the data were processed

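The authors deposited log2 expression values of 44629 probe sets on 6 arrays, by RMA according to the notes on processing from the submitters (background correction, quantile normalization, summary of probes). Version, software, filters and genome build were not given in the sources used here. RMA would hide a change in total RNA per cell. Gene names came from GEO's platform annotation: 15835 had 1 symbol, and the other 28794 stayed out. All genes matched RefSeq (GRCh38.p14). A gene was represented by its brightest probe set (651 genes had several).

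EGOT gapmer minus control gapmer was tested with limma 3.58.1 in R 4.3.3 (lmFit, eBayes, two-sided, Benjamini-Hochberg over 14812 genes, threshold 0.05), a model tested on simulated data. "Passed", "rose" and "fell" refer to this test. Intervals cover 95% for a single gene, without adjustment. Arrays give no read depth, and 3 per group limit the precision. Alternatives changed the normalization, variance prior, probe set rule, filter, genes tested, gene span trend, replicate block and arrays.

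Members, lists, the rule for named genes (all members; other genes past the test, or the 2 with the smallest p) and alternatives were chosen with earlier results of these data known. Some further genes of the lists were named after their values were seen.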

Additional observations from a re-analysis of the deposited data

How the results depend on the processing

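The member count of 1 stayed at 1 under quantile normalization, cyclic loess, both variance priors, the filter on dim genes and removal of the gene span trend. It was 0 with the mean of probe sets. With every probe set tested the counts were 0 members, 1 signalling gene and 0 induced genes, where 67 of all 14812 genes passed. With the replicate number as a block they were 0, 0 and 0, and EGOT kept its difference of -1.76 but did not pass (limma adjusted p = 0.0543). The block left 0 of all genes past the threshold, and same-numbered arrays did not deviate together (correlations -0.03, -0.05 and 0.04), so the numbers were not taken to pair samples. With 1 array left out the counts were 0 members throughout, 0 to 2 signalling genes and 0 to 4 induced genes, and EGOT passed each time (-1.92 to -1.67). Over all genes 1245 passed, 61.8% of them higher; under quantile normalization it was 50.2% of 1353, under cyclic loess 48.8% of 1321, with a variance trend 2513 genes, without the dimmest 25% of genes 2005, and without single arrays 9 to 579. Signs turned, without passing, for RELT (-0.031, mean of probe sets), EDA (0.061 without the span trend; with 1 array left out -0.136 to 0.0705), CD70 (-0.083 to 0.10), EDAR (-0.10 to 0.070), BIRC2 (-0.14 to 0.016) and TNFRSF14-AS1 (-0.21 to 0.0099). Of 374 single-gene values in the alternatives 86 lost a call, 11 turned sign and 277 did neither. The 374 include values of genes that did not pass in the main test and so had no call to lose. Among values of genes that had passed, the share that lost the call is therefore larger than 86 of 374. Each such gene passed in between 5 of 15 alternatives (MLKL and BID) and 12 of 15 (FAF1). EDA2R had no value under the dim filter. The causes were not tested.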

Other observations

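Further cell death genes were examined in a list chosen after the results above were seen. Of 33 listed genes 21 were measured, of the BCL2 and inhibitor-of-apoptosis families and related genes; the 6 listed caspases were not analysed here. Of the 21, 1 rose and 0 fell (limma, adjusted over all 14812 genes), against 5.20% and 3.21% of all genes. At an unadjusted p under 0.05 there were 2 higher and 1 lower, against 16.2% and 8.79% of all genes. The gene that rose was BIRC5, which encodes survivin, a protein of cell division and survival. It read 7.48, 7.50 and 7.55 with the control gapmer and 8.01, 7.98 and 8.07 with the EGOT gapmer, a log2 difference of 0.51 (limma adjusted p = 0.0130). BIRC5 passed in 9 of 15 alternatives, and with 1 array left out only without EGOT gapmer replicate 1 or 2 (differences 0.49 to 0.53). In those settings 579 and 505 of all genes passed, against 9 to 156 with any other array left out. Over the 21 genes the groups were apart and higher in 3 and lower in 3, against 20.2% and 11.5% of all genes. BIRC6, a giant relative of BIRC2 and among those apart and lower, had a difference of -0.17, short of the threshold (limma adjusted p = 0.158). MCL1, a short-lived survival protein gene, had one of -0.10 (limma adjusted p = 0.419), and the pore-forming proteins' genes BAX and BAK1 had differences of -0.01 (limma adjusted p = 0.948) and 0.19 (limma adjusted p = 0.207). PMAIP1, which encodes NOXA, a killer protein induced by double-stranded RNA, read 7.26, 7.28 and 7.22 with the control gapmer and 7.54, 7.61 and 7.28 with the EGOT gapmer, or 0.22 higher on the log2 scale, short of the threshold (limma adjusted p = 0.219).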
